A study of Mus musculus with 21 samples.

Results

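The MHC class II presentation genes comprise 10 genes, listed by name: H2-Aa, H2-Ab1 and H2-Eb1, which encode chains of the classical class II molecules, H2-DMa, H2-DMb1, H2-Oa and H2-Ob, which encode chains of the peptide-loading molecules, the invariant chain gene Cd74, the transactivator gene Ciita and the protease gene Ctss. A gene was measured where a probe set carried its symbol alone. Of the 10 genes, 9 were measured, each on 1 such probe set, among 22180 genes in all. Cd74 was not analysed here. RNA from mouse mammary carcinoma was hybridised to Affymetrix whole-transcript arrays, and values are log2 signals on 21 arrays. Py117 and Py8119 are cell lines cloned from tumours of MMTV-PyMT transgenic mice, in which the mouse mammary tumour virus promoter drives the polyomavirus middle T oncogene in mammary epithelium, and each line is thus 1 clone. The groups were Py117 cells in culture (3 arrays), Py8119 cells in culture (3), tumours grown from Py117 cells (5), tumours grown from a 1:1 mixture of both lines (5, called mixed tumours) and tumours grown from Py8119 cells (5). Each tumour began as 1000000 cells placed with matrigel in mammary fat pad 4 of a mouse whose strain and age were not given in the sources used here. All cells and tumours were untreated, and tumours were collected on the day on which irradiation would usually take place. Per the series text, the Py117 line is radiosensitive and the Py8119 line radioresistant, and immune responses were the interest of the study. Replicates were labelled as biological, without saying whether cultures were grown separately.

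MHC class II molecules carry peptides from the endosomal pathway to the cell surface, where CD4 T cells read them. Dendritic cells, macrophages and B cells express them constitutively or after activation, and many epithelial and tumour cells do so after exposure to interferon-gamma. In the endosome the invariant chain is cut by proteases including cathepsin S (Ctss), H2-DM then exchanges the remaining fragment for peptide, and H2-O restrains H2-DM. CIITA binds no DNA itself and acts through RFX and NF-Y proteins seated on the X and Y boxes of class II promoters.

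Promoter stretches are shown first because class II genes are the textbook targets of CIITA, and the boxes are the letters that such promoters share. RefSeq windows on GRCm38.p6, from 250 bases before to 50 bases after a start, were searched for 7 of the 10 members (8 windows, of which H2-DMa had 2). Cd74 was left out of this search. The X box letters CCTAGNNAC, searched on both strands, were followed by the Y box letters GATTGG after 10 to 30 bases in 2 members, H2-DMb1 and H2-Ob, and in 0.0457% of the 32851 windows in the table. Looser letters for the first box, CNNGNAAC, chosen after the sequences had been seen, took in H2-Aa, H2-Eb1 and H2-Oa as well, and that arrangement stood in 0.277% of all windows. The 5 stretches are printed on the strand of the gene, with the looser first box and the Y box in capitals.
H2-Aa: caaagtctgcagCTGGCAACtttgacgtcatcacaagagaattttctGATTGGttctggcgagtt
H2-Eb1: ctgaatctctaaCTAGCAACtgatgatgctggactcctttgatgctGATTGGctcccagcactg
H2-DMb1: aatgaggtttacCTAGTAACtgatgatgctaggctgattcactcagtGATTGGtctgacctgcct
H2-Oa: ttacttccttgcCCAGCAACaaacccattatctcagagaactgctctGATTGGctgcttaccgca
H2-Ob: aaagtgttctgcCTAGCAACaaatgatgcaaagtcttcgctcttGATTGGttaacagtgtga

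The stretches lie at chr17:34287855-34287919 for H2-Aa (minus strand), chr17:34305761-34305824 for H2-Eb1, chr17:34153082-34153146 for H2-DMb1, chr17:34092288-34092352 for H2-Oa and chr17:34238803-34238864 for H2-Ob (all plus strand). They are promoter sequence, and the first capital letter lies 84, 94, 97, 79 and 90 bases before the respective start. The gap between the boxes was 27 bases in H2-Aa, H2-DMb1 and H2-Oa, 26 in H2-Eb1 and 24 in H2-Ob. The Y box letters occurred in 6 of the 7 members searched, and in 16.1% of all windows. GATTGG contains the reverse complement of CCAAT, so those 6 members also held CCAAT, as did 37.4% of windows. Neither H2-DMa nor Ctss held the arrangement of both boxes in these windows. A match is a description of letters and not a measured binding site.

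**Figure D1:**
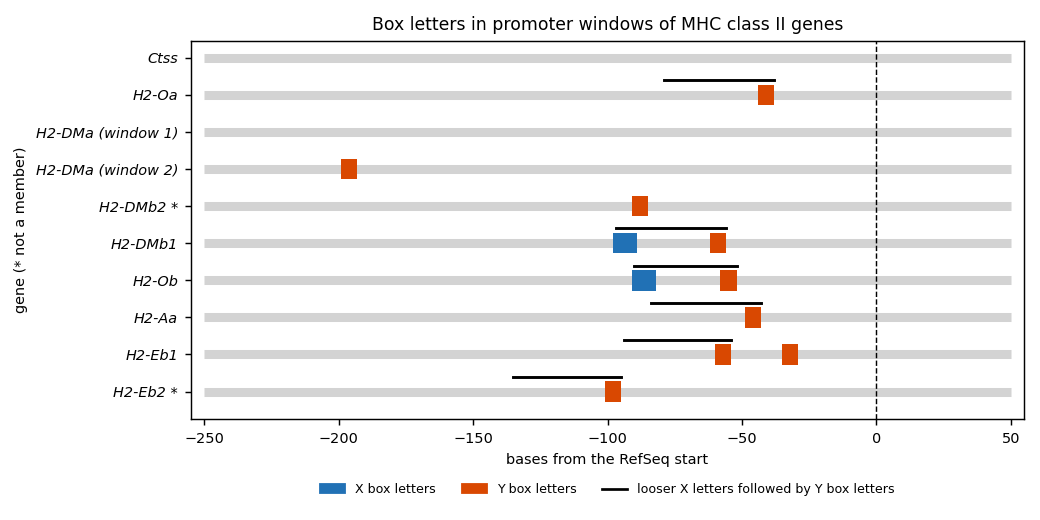
Positions of the X box letters (blue), the Y box letters (orange) and the looser arrangement of both (black line) in promoter windows of class II genes, in bases from the RefSeq start, with genes that are no members marked by an asterisk. The arrangement begins within 97 bases of the start in H2-Oa, H2-DMb1, H2-Ob, H2-Aa and H2-Eb1.

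The median of all probe sets on an array lay between 5.24 and 5.53, and arrays of a group correlated across genes with r between 0.969 and 0.994. As a reference for background signal, 1394 olfactory and vomeronasal receptor genes had a 95th percentile of 5.31, and a difference against a group mean under that level is limited by background. Epithelial markers, which check the cell type of the lines, had a mean of 9.36 in Py117 cultures, with 8 of 9 over background, and of 6.14 in Py8119 cultures, with 4 of 9 over background. Differences are log2 differences with the standard error of limma. A gene was called at an adjusted p under 0.05 over all 22180 genes. Tumours were profiled whole, so fewer cells of a type and less RNA per cell cannot be told apart.

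The classical chain genes were higher in every tumour than in any culture, and of their culture means only those of H2-Aa lay under the background level. H2-Ab1, the beta chain of H2-A, read 5.44, 5.77 and 5.95 in the 3 Py117 cultures and 6.20, 5.55 and 5.66 in the 3 Py8119 cultures. In tumours it read 12.23, 12.13, 12.59, 12.91 and 12.86 for Py117, 11.62, 12.24, 12.47, 12.06 and 11.67 for mixed, and 10.77, 10.95, 10.67, 11.17 and 11.27 for Py8119. The Py8119 tumours were thus the lowest without overlap, while mixed and Py117 tumours overlapped. H2-Aa, the alpha chain of H2-A, read 4.30, 4.54 and 4.74 in Py117 cultures and 5.08, 4.51 and 5.16 in Py8119 cultures, all under the background level. In tumours it read 10.45, 10.14, 10.59, 10.89 and 10.81 for Py117, 9.58, 10.23, 10.57, 10.18 and 9.82 for mixed, and 8.81, 8.90, 8.74, 9.08 and 9.15 for Py8119. Again the Py8119 tumours stood apart on the low side. H2-Eb1, the beta chain of H2-E, read 7.06, 5.48 and 6.10 in Py117 cultures and 6.25, 5.98 and 6.88 in Py8119 cultures. Its tumour values were 9.91, 9.47, 10.13, 10.39 and 10.43 for Py117, 9.02, 9.80, 10.09, 9.44 and 9.04 for mixed, and 8.26, 8.27, 8.07, 8.49 and 8.49 for Py8119. The spread among cultures was widest for this gene (SD 0.80 in Py117 and 0.46 in Py8119, n = 3 each), and cultures and tumours did not overlap. H2-Ea, which encodes the alpha partner of H2-Eb1 and is no member, stayed under the background level in every group, with means from 4.00 to 4.48.

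Ciita differed less between cultures and tumours than the chain genes. It read 6.57, 6.37 and 6.91 in Py117 cultures and 6.22, 6.27 and 5.97 in Py8119 cultures, so the lines did not overlap in culture. In tumours it read 7.25, 7.54, 8.31, 8.08 and 8.19 for Py117, 7.15, 7.52, 8.07, 7.42 and 7.27 for mixed, and 6.58, 6.87, 6.49, 7.02 and 7.04 for Py8119. The lowest mixed tumour lay above the highest Py8119 tumour, and Py8119 tumours overlapped in level with Py117 cultures. Ctss read 4.77, 4.57 and 5.09 in Py117 cultures and 4.95, 5.15 and 4.96 in Py8119 cultures, all under background. In tumours it read 11.90, 12.07, 12.55, 12.56 and 12.53 for Py117, 12.08, 12.29, 12.65, 12.08 and 12.18 for mixed, and 11.71, 11.71, 11.78, 11.86 and 11.91 for Py8119. All tumours were high, and 1 Py117 tumour (11.90) fell just under the highest Py8119 tumour (11.91).

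The peptide-loading genes fell into separate patterns. H2-DMa, the alpha chain of H2-DM, read 6.46, 6.33 and 5.78 in Py117 cultures and 6.05, 6.39 and 5.05 in Py8119 cultures. In tumours it read 8.61, 8.61, 9.57, 9.10 and 9.06 for Py117, 8.58, 9.27, 9.73, 9.27 and 8.84 for mixed, and 8.61, 8.62, 8.39, 8.61 and 8.60 for Py8119. The 3 tumour groups overlapped, with the smallest spread in Py8119 (SD 0.10, n = 5). H2-DMb1, the beta chain of H2-DM, had a mean under background in every group, from 4.11 in Py8119 cultures to 5.06 in Py117 tumours, and only 1 array exceeded the background level (5.38, Py117 tumour 5). H2-DMb2, a near-identical paralogue that is no member, had means of 4.20 in Py117 and 4.93 in Py8119 cultures. Its tumour means were 6.74 for Py117, 6.98 for mixed and 6.95 for Py8119. Signal of the beta chain of H2-DM may thus be split between these probe sets, and the H2-DMb1 values are uncertain. H2-Oa ranged from 5.63 to 6.57 and H2-Ob from 5.55 to 6.17 over all 21 arrays, and for both genes cultures and tumours overlapped.

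**Figure D2:**
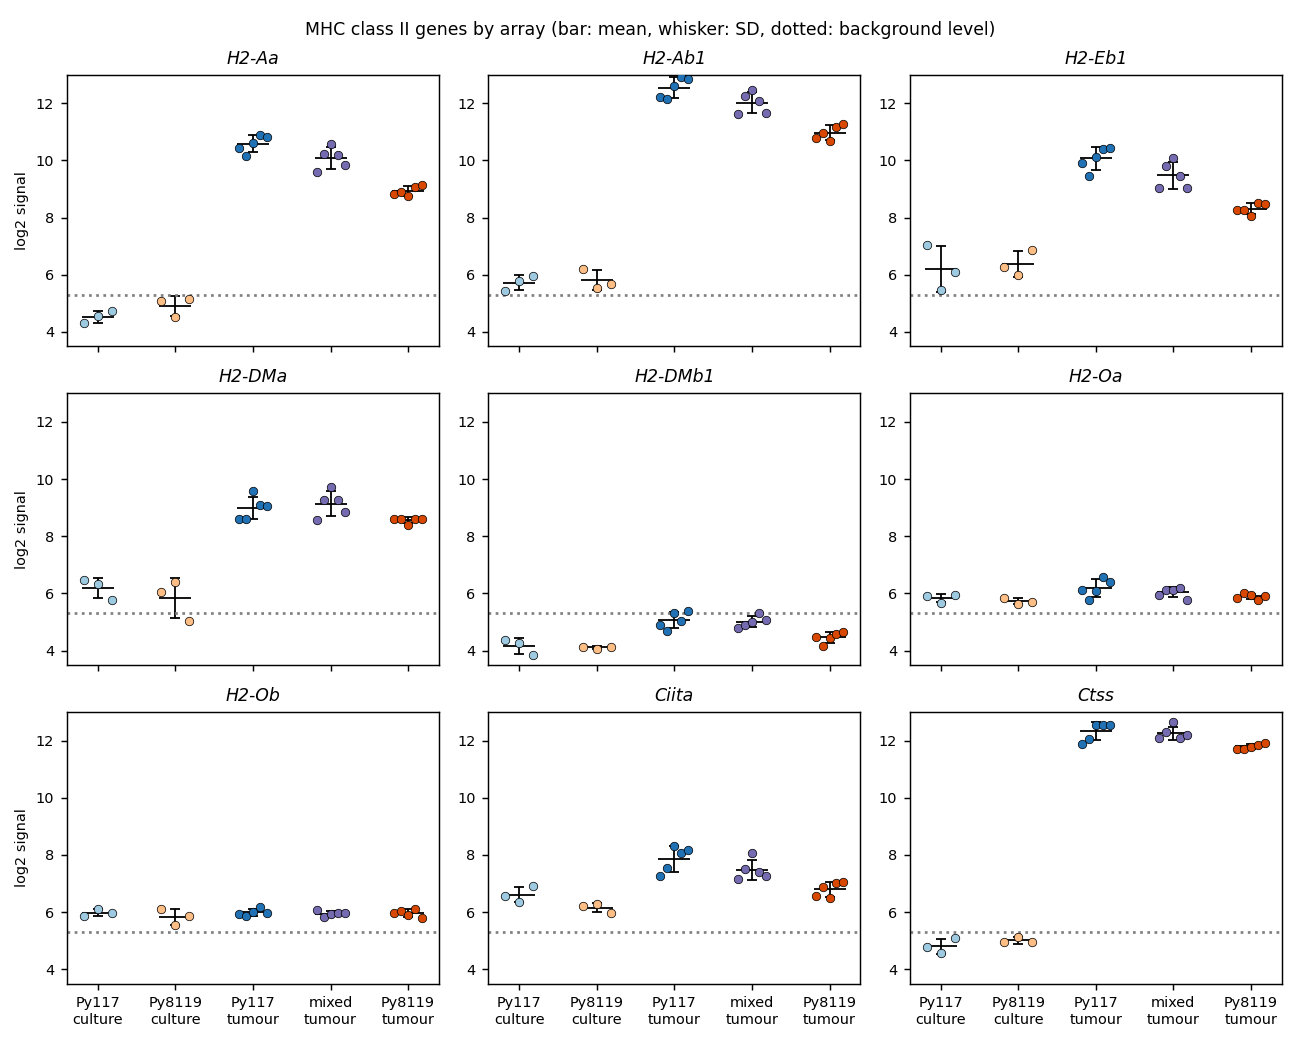
Log2 signal of the 9 measured members on each of the 21 arrays, by group, with the group mean (bar), the SD (whisker) and the background level (dotted line). H2-Aa, H2-Ab1, H2-Eb1, H2-DMa and Ctss are higher in every tumour than in any culture, H2-Oa and H2-Ob overlap between cultures and tumours, and H2-DMb1 lies close to or under background.

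Tumours were set against the same line in culture, which places tissue with host cells against tumour cells alone. In Py117, 7 of 9 members were higher in tumours and none was lower, where 30.7% of all genes were called, 12.4% higher and 18.3% lower. Groups did not overlap in these 7 members, as in 35.6% of all genes. The median difference was 2.80 for the members and -0.09 for all genes. Ctss rose by 7.51 ± 0.19 (adjusted p = 4.1e-09, n = 5 and 3), H2-Ab1 by 6.82 ± 0.20 (113-fold) and H2-Aa by 6.05 ± 0.18. H2-Eb1 rose by 3.86 ± 0.32, H2-DMa by 2.80 ± 0.23 (6.97-fold), Ciita by 1.26 ± 0.24 (adjusted p = 0.00232) and H2-DMb1 by 0.90 ± 0.18 (adjusted p = 0.00288). H2-Oa differed by 0.35 (95% interval -0.03 to 0.73) and H2-Ob by 0.01 (-0.24 to 0.26), and neither was called.

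In Py8119 the same 7 members were higher in tumours than in culture, where 37.1% of all genes were called, 16.3% of them higher and 20.9% lower as shares of all genes. Groups did not overlap in these 7 members, as in 38.2% of all genes. The median difference was 1.94 for the members and -0.05 for all genes. Ctss rose by 6.78 ± 0.09 (adjusted p = 1.23e-10, n = 5 and 3), H2-Ab1 by 5.16 ± 0.18 (35.8-fold), H2-Aa by 4.02 ± 0.16 and H2-Eb1 by 1.94 ± 0.19. H2-DMa rose by 2.74 ± 0.24, close to its value in Py117, and Ciita by 0.64 ± 0.15 (adjusted p = 0.00616), although Ciita was not called after quantile normalization (0.39, adjusted p = 0.0834). The small difference of H2-DMb1 (0.35 ± 0.12, adjusted p = 0.035) was called without Py8119 tumour 2 but was not called without any other single array, where adjusted p ran from 0.0596 to 0.0901. All 6 pan leukocyte genes also rose in tumours of both lines, among them Ptprc, which encodes CD45 (5.27 ± 0.20 in Py117 and 4.61 ± 0.29 in Py8119). Their summed linear signal ran from 264.5 to 334.1 over the cultures and from 3215 to 5763 over the tumours.

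The rise from culture to tumour differed between the lines for 4 members, tested as an interaction in 1 fit of the 16 arrays of unmixed groups. These 4 were smaller in Py8119, where 5.99% of all genes had a called negative and 7.5% a called positive interaction (13.5% together), and no member rose more in Py8119 by this test. The difference between the rises was -2.03 ± 0.25 for H2-Aa (adjusted p = 2.71e-05), -1.66 ± 0.29 for H2-Ab1 (adjusted p = 0.000708), -1.91 ± 0.41 for H2-Eb1 (adjusted p = 0.00376) and -0.73 ± 0.22 for Ctss (adjusted p = 0.0335). For H2-Aa and Ctss the culture means of both lines lay under the background level, which limits the culture part of these values. The call for Ctss was lost without Py117 culture 1 or 2, Py8119 culture 2 or 3, Py117 tumour 4 or 5, or Py8119 tumour 1, 2 or 3, with adjusted p from 0.0523 to 0.108. Ciita had an interaction of -0.61 ± 0.30 that did not pass (adjusted p = 0.217, 95% interval -1.25 to 0.03), and H2-DMa one of -0.06 (-0.83 to 0.70).

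Between the lines in culture, no member was called, while 26.8% of all genes were, 14.5% higher and 12.3% lower. Ciita was the only member whose groups did not overlap, with a difference of -0.46 ± 0.16 in Py8119 (adjusted p = 0.0761, n = 3 and 3), and 42% of all genes had groups that did not overlap in this comparison. Ciita was called without Py117 culture 2 (-0.58, adjusted p = 0.0469) and H2-Aa without Py8119 culture 2 (0.59, adjusted p = 0.0292). H2-Aa otherwise differed by 0.39 (95% interval -0.07 to 0.86) with both means under background. H2-Ab1 differed by 0.08 (-0.40 to 0.56) and H2-Eb1 by 0.16 (-0.79 to 1.12). By limma's p before adjustment, Ciita alone among the members lay under 0.05.

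Between the unmixed tumours, the comparison asks how class II expression differs between tumours of the radiosensitive Py117 and the radioresistant Py8119 line. Each line is 1 clone, so radiosensitivity cannot be told apart from other differences between the lines. Members were lower in Py8119 tumours for 6 of 9 genes and higher for none, where 37.4% of all genes were called, 21% higher and 16.5% lower. The median difference was -0.60 for the members and 0.01 for all genes. H2-Eb1 fell by 1.75 on the log2 scale (SE 0.20, 3.36-fold lower, adjusted p = 1.8e-06, n = 5 and 5), H2-Aa by 1.64 (SE 0.17, 3.12-fold, adjusted p = 3.99e-07) and H2-Ab1 by 1.58 (SE 0.18, 2.98-fold, adjusted p = 1.82e-06). Ciita was 2.10-fold lower (-1.07 ± 0.20, adjusted p = 0.000293). H2-DMb1 differed by -0.60 ± 0.13 (adjusted p = 0.00156) with both means under background, and it was not called with the mean of the adipocyte genes as a covariate (adjusted p = 0.0679). The means of its paralogue H2-DMb2 had the opposite order (6.74 in Py117 and 6.95 in Py8119 tumours), without a call. Ctss was lower by a smaller step (-0.53 ± 0.14, adjusted p = 0.0049) and its groups overlapped. In the other 5 called members the groups did not overlap, which held for 27.6% of all genes.

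Of the members not called between the unmixed tumours, H2-DMa differed by -0.42 ± 0.19 (adjusted p = 0.105, 95% interval -0.83 to -0.01) and H2-Ob by -0.03 (-0.21 to 0.15). H2-Oa differed by -0.29 ± 0.13 (adjusted p = 0.0891) and was called without Py117 tumour 2 (-0.39, adjusted p = 0.0129). The order of group means for H2-Aa, H2-Ab1 and H2-Eb1 was thus Py117, mixed and Py8119, and both neighbouring steps were called. In the step between Py117 and mixed tumours the groups overlapped. Its calls were lost without some single tumours and with the adipocyte mean as a covariate. For Ciita that order held for the means, and neither neighbouring step was called.

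**Figure D3:**
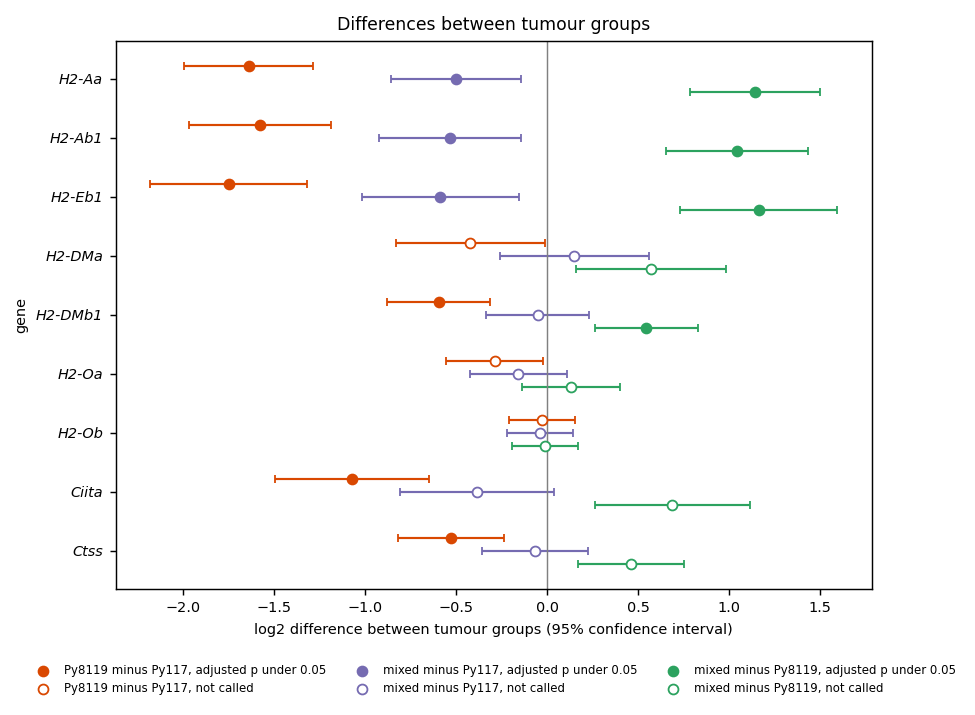
Log2 differences of the 9 measured members between tumour groups, with 95% confidence intervals from limma, where filled points passed adjusted p under 0.05 and open points did not. H2-Aa, H2-Ab1 and H2-Eb1 lie between -1.75 and -1.58 for Py8119 minus Py117 tumours, and H2-Ob lies near 0 in all 3 comparisons.

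The members did not differ between tumours by equal amounts. Within each tumour the log2 signal of 1 gene was subtracted from that of another, which removes what scales both alike, and groups were compared with a two-sided exact permutation test over tumours. These tests were chosen after the data were seen and number 36, and 0.00794 is the smallest p that 5 against 5 tumours allow. Relative to Ctss, the Py8119 tumours were lower than the Py117 tumours by -1.11 for H2-Aa, -1.05 for H2-Ab1 and -1.22 for H2-Eb1 (exact permutation p = 0.00794 each, adjusted over the family 0.0119, lower in 5 of 5 tumours). Relative to H2-DMa, the same genes differed by -1.22, -1.15 and -1.33 (exact p = 0.00794 each). Relative to the leukocyte gene Ptprc they differed by -0.66, -0.60 and -0.77 (exact p = 0.00794 each). Ciita also fell relative to Ctss (-0.55) and H2-DMa (-0.65), both at exact p = 0.00794. Relative to Ptprc, Ciita differed by -0.09 between the unmixed tumours (exact permutation p = 0.429, SD 0.20 in Py8119 and 0.15 in Py117 tumours).

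Mixed tumours lay between the unmixed ones for the classical chain genes. Against Py117 tumours, 3 of 9 members were lower and none higher, where 36.1% of all genes were called, 19.2% higher and 16.9% lower. Groups overlapped for every measured member, while 24.8% of all genes had groups that did not overlap. The 3 called members were H2-Aa (-0.50 ± 0.17, adjusted p = 0.0275, n = 5 and 5), H2-Ab1 (-0.53 ± 0.18, adjusted p = 0.031) and H2-Eb1 (-0.59 ± 0.20, adjusted p = 0.0321). This result rested on few tumours: no member was called without Py117 tumour 4 or 5 or mixed tumour 1 or 5, 1 was called without Py117 tumour 3, and H2-Eb1 was not called without mixed tumour 4 (adjusted p = 0.0603). Adipocyte genes moved with this comparison. Of 14, 12 were lower in mixed tumours, and their summed linear signal ran from 2917 to 13030 in Py117 and from 1295 to 1971 in mixed tumours. With the adipocyte mean as a covariate no member was called, and H2-Ab1 differed by -0.40 ± 0.26 (adjusted p = 0.246). Without the 3 Py117 tumours of highest adipocyte mean (replicates 1, 4 and 5) no member was called either (H2-Ab1 -0.35 ± 0.22, adjusted p = 0.233). Ciita differed by -0.38 ± 0.20 (adjusted p = 0.152) and was called without Py117 tumour 1 (-0.54, adjusted p = 0.0316) or mixed tumour 3 (-0.53, adjusted p = 0.0411). With the pan leukocyte mean as a covariate, an alternative added after the data were seen, 4 members were lower in mixed tumours, H2-Aa (-0.51 ± 0.13, adjusted p = 0.00505), H2-Ab1 (-0.55 ± 0.14), H2-Eb1 (-0.61 ± 0.15) and Ciita (-0.41 ± 0.11, adjusted p = 0.00558). H2-DMa differed by 0.15 (95% interval -0.26 to 0.56) and Ctss by -0.07 (-0.36 to 0.22), neither of them called.

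Against Py8119 tumours, 4 of 9 members were higher in mixed tumours and none lower, where 1.78% of all genes were called, 1.61% higher and 0.162% lower. H2-Eb1 was higher by 1.16 ± 0.20 (2.24-fold, adjusted p = 0.00347, n = 5 and 5), H2-Aa by 1.14 ± 0.17 (adjusted p = 0.000669) and H2-Ab1 by 1.04 ± 0.18 (adjusted p = 0.00356). H2-DMb1 was higher by 0.54 ± 0.13 (adjusted p = 0.0469), with both means under background. That call was lost without any single mixed or Py8119 tumour other than mixed tumour 1, with adjusted p from 0.0524 to 0.154. Groups did not overlap in 6 members, the 4 called ones with Ciita (0.69 ± 0.20, adjusted p = 0.113) and Ctss (0.46 ± 0.14, adjusted p = 0.125), against 5.54% of all genes. With array weights, Ciita (0.66, adjusted p = 0.0326) and Ctss (0.45, adjusted p = 0.0341) were called too. With the pan leukocyte mean as a covariate, the 3 chain genes were called (H2-Aa 0.93, H2-Ab1 0.80, H2-Eb1 0.89), and H2-DMb1 was not (0.41, adjusted p = 0.179). Under that covariate Ciita differed by 0.35 (adjusted p = 0.206), Ctss by 0.24 (adjusted p = 0.257) and H2-DMa by 0.25 (adjusted p = 0.378). H2-DMa differed by 0.57 ± 0.19 (adjusted p = 0.193).

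The place of the mixed tumours was computed on the linear scale as a percentage of the way from the Py117 mean to the Py8119 mean, for the members called between the unmixed tumours with a difference of at least 1. It was 41.7% ± 27.5 for H2-Aa, 46.0% ± 26.2 for H2-Ab1, 45.7% ± 31.5 for H2-Eb1 and 45.3% ± 38.1 for Ciita (SD over mixed tumours, n = 5). Single mixed tumours were spread along most of the scale. For H2-Ab1 they ran from 11.1% to 72.7%, and for Ciita from -19.3% to 77.2%, since mixed tumour 3 lay above the Py117 mean. Mixed tumour 3 was the highest mixed tumour in H2-Aa, H2-Ab1, H2-Eb1, H2-DMa, Ciita and Ctss, and it also had the highest pan leukocyte mean of that group (9.67, the other 4 from 9.15 to 9.32).

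Relative to Ptprc, mixed tumours differed from Py8119 tumours by 0.55 for H2-Aa, 0.45 for H2-Ab1 and 0.57 for H2-Eb1 (exact permutation p = 0.00794 each, adjusted 0.0119). From Py117 tumours they differed by -0.11, -0.15 and -0.20 for the same genes (exact permutation p from 0.286 to 0.444). For Ciita relative to Ptprc the difference was 0.09 against Py8119 (exact p = 0.397) and 0.00092 against Py117 tumours (exact p = 1). The comparisons share the mixed tumours, so they are not independent of each other.

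Of 13 genes of proteins that act with CIITA at class II promoters, 2 were higher in Py8119 than in Py117 tumours, 1 was lower and the other 10 were not called, where 21% of all genes were higher and 16.5% lower. Their median difference was 0.13. Rfxank, a subunit of the RFX complex, was higher by 0.65 ± 0.12 (adjusted p = 0.000201), and the histone acetyltransferase gene Crebbp was lower (-0.71 ± 0.12, adjusted p = 7.23e-05). The other RFX subunits were not called, with Rfx5 at 0.21 (adjusted p = 0.122) and Rfxap at 0.24 (adjusted p = 0.0973). Between mixed and Py8119 tumours none of the 13 was called. Of 15 genes of endosomal processing, 7 were higher in Py8119 tumours and 2 lower. The thiol reductase gene Ifi30 was higher by 0.34 ± 0.12 (adjusted p = 0.0409), the legumain gene Lgmn by 0.48 ± 0.11 (adjusted p = 0.00145), and the adaptor subunit gene Ap1m1 by 1.23 ± 0.09 (adjusted p = 5.37e-09). The cathepsin gene Ctsh was lower (-1.16 ± 0.13, adjusted p = 8.79e-07). It also differed in culture, where its mean was 10.1 in Py117 and 6.57 in Py8119 cells (-3.56 ± 0.16, adjusted p = 1.11e-05).

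Genes induced by interferon-gamma, which is known to switch on Ciita, were measured alongside. Of 18 such genes, 17 were lower in Py8119 than in Py117 tumours (median -2.10), where 16.5% of all genes were lower. Of the same genes, 13 were higher in mixed than in Py8119 tumours (median 1.53), where 1.61% of all genes were higher. Iigp1, an immunity-related GTPase, differed by -4.37 ± 0.31 between the unmixed tumours (adjusted p = 2.95e-09), and the chemokine gene Cxcl9 by -4.25 ± 0.38. Nlrc5, the transactivator of class I genes and a relative of Ciita, differed by -1.45 ± 0.22 (adjusted p = 3.52e-05), and by 1.30 ± 0.22 between mixed and Py8119 tumours (adjusted p = 0.00261). Between mixed and Py117 tumours 5 of the 18 were lower and 1 higher, where 16.9% of all genes were lower and 19.2% higher. Of 15 signalling genes, 2 were higher and 3 lower in Py8119 than in Py117 tumours, a share near that of all genes (37.4% called). The called genes included the kinase gene Jak1 (-1.24 ± 0.14, adjusted p = 1.43e-06) and the cytokine gene Il18 (1.19 ± 0.20). Ifng itself differed by -0.34 (adjusted p = 0.42) at means of 5.81 in Py117 and 5.47 in Py8119 tumours, close to background, and Irf1, a transcription factor induced by interferon-gamma, by 0.28 (adjusted p = 0.374). Jak1 was also lower in cultured Py8119 cells (-0.91 ± 0.08, adjusted p = 0.000257). The part of interferon-gamma in the class II result was not tested.

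The recognition list holds receptors of the T cells that read class II and the co-stimulatory partners on presenting cells. Of its 10 genes, 6 were lower in Py8119 than in Py117 tumours and none higher (median -0.40), where 16.5% of all genes were lower, among them Cd4, the T cell co-receptor for class II (-1.52 ± 0.21, adjusted p = 1.26e-05), and Cd40 (-0.62 ± 0.18, adjusted p = 0.0112). Cd86, a co-stimulatory ligand, differed by 0.10 (adjusted p = 0.685) and Lag3, which encodes an inhibitory receptor for class II, by -0.35 (adjusted p = 0.12). All 11 T cell genes were lower (median -0.98), and their summed linear signal ran from 1120 to 2664 in Py117, from 905.3 to 1499 in mixed and from 644.3 to 733.5 in Py8119 tumours. Mixed tumours exceeded Py8119 tumours in 1 T cell gene, Cd3g (1.66 ± 0.32, adjusted p = 0.00742), and in 1 recognition gene, Cd40 (0.74 ± 0.18, adjusted p = 0.0421), where 1.61% of all genes were higher.

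Markers of cells that present antigen differed in several directions between Py8119 and Py117 tumours. In this comparison 16.5% of all genes were lower and 21% higher. In the dendritic cell list of 16 genes, 7 were lower, 4 were higher and the median was -0.30. Dpp4 (-2.08 ± 0.18) and the integrin gene Itgax, which encodes CD11c (3.99-fold, adjusted p = 3.47e-06), were lower, and Ccl17, a chemokine of dendritic cells, was higher (2.08 ± 0.45, adjusted p = 0.00112). Flt3, a growth factor receptor of dendritic cells, differed by -0.65 ± 0.20 (adjusted p = 0.0145) and Zbtb46, a transcription factor of classical dendritic cells, by -0.51 ± 0.10 (adjusted p = 0.00057). Both were named after their values were seen. Their means in Py8119 tumours, 5.64 for Flt3 and 5.71 for Zbtb46, lay not far over the background level of 5.31. The chemokine receptor gene Xcr1 had means of 5.60 and 5.28, near background. The summed linear signal of the dendritic cell list ran from 3176 to 4907 in Py117, from 4213 to 5248 in mixed and from 4601 to 5439 in Py8119 tumours, and Cd209a, a member of that list, was already at 9.20 and 9.48 in the cultures. Of 18 macrophage genes, 10 were higher and 2 lower in Py8119 tumours (median 0.39), with the scavenger receptor gene Msr1 at 2.06 ± 0.15 and the endotoxin co-receptor gene Cd14 at -1.34 ± 0.11. Cd14 was already lower in culture, with means of 9.85 in Py117 and 7.31 in Py8119 cells. The part of the tumour cells in its tumour difference was not tested. Msr1 had means under background in both cultures (4.62 and 4.35). Of the 18 genes, 2 were lower and none higher in Py8119 than in Py117 cultures. The summed linear signal of the macrophage list ran from 14860 to 18930 in Py117, from 22570 to 26910 in mixed and from 22190 to 27190 in Py8119 tumours. In the monocyte list of 5 genes, 2 were higher and 2 lower. Genes of cells that are not leukocytes also differed, with 7 of 9 epithelial, 7 of 8 fibroblast, all 8 endothelial and 1 of 3 lymph node stroma genes lower in Py8119 tumours, and 1 fibroblast gene higher. The part of fibroblasts, endothelium, dendritic cells, macrophages and T cells in the class II result was not tested.

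Of 14 B cell markers, 7 had means over the background level in Py117, 3 in mixed and 6 in Py8119 tumours. Ms4a1, Cd79a, Fcer2a and Cr2 had means under it in all 5 groups. Against culture, 1 of the 14 was higher in Py117 and 4 were higher in Py8119 tumours, where 12.4% and 16.3% of all genes were higher. Between the unmixed tumours, 2 of 14 B cell genes were lower in Py8119 than in Py117 tumours, a share near the 16.5% of all genes that were lower. The summed linear signal of the B cell list ran from 572.1 to 727.1 over all tumours. Markers of leukocytes in general gave 2 of 6 genes lower in Py8119 tumours, Ptprc (-0.98 ± 0.17, adjusted p = 0.000141) and Cd52 (-0.49 ± 0.15, adjusted p = 0.0113), with a median of -0.03. Their summed linear signal ran from 3215 to 5583 in Py117, from 3939 to 5763 in mixed and from 3626 to 3853 in Py8119 tumours. The mean of these 6 genes was also used as a covariate, an alternative added after the data were seen. Only 2 of the 6 were called, and their mean does not separate types of leukocytes, so the part of such types was not tested. With it the Py8119 tumours were lower than Py117 tumours in H2-Aa (-1.44 ± 0.14), H2-Ab1 (-1.35 ± 0.15, adjusted p = 2.07e-06), H2-Eb1 (-1.50 ± 0.17) and Ciita (-0.76 ± 0.12, adjusted p = 5.43e-05). The difference of Ctss became -0.32 ± 0.09 (adjusted p = 0.00792) and that of H2-DMa -0.12 ± 0.12 (adjusted p = 0.501). Adipocyte genes were lower in Py8119 tumours in 12 of 14 cases, and with their mean as a covariate H2-Ab1 differed by -1.43 ± 0.27 (adjusted p = 5e-04).

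**Figure D4:**
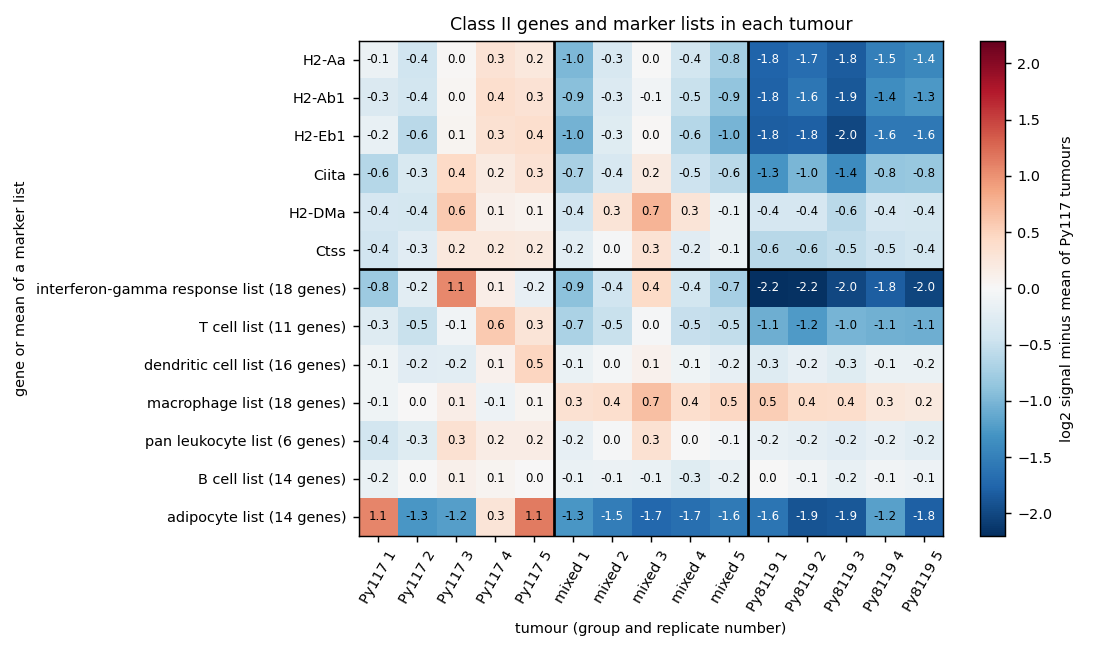
Log2 signal of 6 members and mean log2 signal of 7 marker lists in each of the 15 tumours, relative to the mean of the 5 Py117 tumours (colour scale and printed values). H2-Aa, H2-Ab1, H2-Eb1 and the interferon-gamma response list are lowest in the 5 Py8119 tumours, while the pan leukocyte and dendritic cell lists differ by less and the macrophage list is higher in mixed and Py8119 tumours.

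Across the 15 tumours the classical chain genes varied together. Log2 values of H2-Aa and H2-Ab1 had r = 0.99, as had H2-Aa with H2-Eb1, and the deviations from group means of these 3 genes kept r between 0.95 and 0.96. Ciita followed Ctss (r = 0.95) and H2-Ab1 (r = 0.95), with r of 0.92 and 0.87 for deviations from group means. H2-DMa followed Ciita (0.81, deviations 0.86) more than H2-Aa (0.71, deviations 0.80), and H2-Ob had r of at most 0.31 with any other member. The points share 3 tumour groups, arrays and processing, and these values describe 15 tumours without a test. Of 11391 genes with a group mean over 6 in a tumour group, the 5 most like H2-Ab1 by Pearson r were Plbd1 (0.98), the class I gene H2-K1 (0.97), the receptor gene Tnfrsf18 (0.97), Ctsh (0.96) and Slamf7 (0.96). Those most like Ciita were Plbd1 (0.97), Ptprc (0.97), B2m, the light chain of class I (0.96), Sppl2a, a protease that cuts the invariant chain remnant (0.96), and H2-K1 (0.96). Those most like Ctss were the purine receptor gene P2ry14 (0.97), Ptprc (0.95), H2-Q4 (0.94), Rnf115 (0.94) and Cyp4f18 (0.94).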

How the data were processed

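The deposited values are log2 signals, and the submitters' processing notes name RMA and limma. Versions, array batches and further settings were not given in the sources used here. Of 41345 probe sets, 23521 had 1 gene symbol, 1814 several and 16010 none. Those with 1 symbol gave 22180 genes, with the brightest probe set kept for 1082 genes. Comparisons used lmFit and eBayes of limma 3.58.1 (R 4.3.3) with Benjamini-Hochberg adjustment over all genes. The 15 tumours entered 1 fit, and the other comparisons used only the arrays of the groups compared. The procedure was tested on simulated data. All 10 members, set lists and 15 further genes could be named, with the 1 or 2 largest called differences of a list and the 5 genes most like H2-Ab1, Ciita or Ctss. Flt3, Zbtb46, Xcr1, Cd14, Cd209a, Ctsh in culture, Jak1 in culture and Cd52 were named after their values were seen. The members and lists were chosen with earlier results of these data known. Promoter sequences came from RefSeq (GRCm38.p6). Replicate numbers were not used to pair samples in the main fits. Of 36 same-numbered pairs, 6 had deviations correlated above 0.1 (range -0.23 to 0.26). Pairs of unlike number were not computed, so these values cannot exclude pairing. The number of arrays limits the precision, and p-values measure only the spread between these samples, which may be technical. Alternatives were quantile normalization, median centring, a filter on dim genes, all probe sets averaged, array weights, another prior, a replicate block, 1 fit over all 21 arrays, a threshold of 0.01, adipocyte or leukocyte covariates and leaving out arrays. Figures used Python 3.11.15 and matplotlib 3.10.9.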

Additional observations from a re-analysis of the deposited data

Results flagged for a closer look

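H2-DMa in Py8119 tumour 3 read 8.39, below the other 4 Py8119 tumours, which lay between 8.60 and 8.62. Of 27 sets of 5 tumours examined for a sample far from the others, this was the only one, and chance gives about 1 in 20. The rise from culture to tumour was smaller in Py8119 than in Py117 by the interaction test for H2-Aa (-2.03 ± 0.25, adjusted p = 2.71e-05, limma), H2-Ab1 (-1.66 ± 0.29, adjusted p = 0.000708), H2-Eb1 (-1.91 ± 0.41, adjusted p = 0.00376) and Ctss (-0.73 ± 0.22, adjusted p = 0.0335). Between the unmixed tumours the groups did not overlap for the first 3 of these genes and overlapped for Ctss. The same tumours enter the interaction, so this is no separate evidence for it. The culture means of H2-Aa and Ctss lay under the background level, which limits the culture part of their interactions.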

How the results depend on the processing

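Counts of called members kept within 1.5 times of their value in the alternatives run, except in these comparisons. Between the cultures, 1 member was higher with each array centred on its median (H2-Aa, 0.54, adjusted p = 0.0426), and 1 was lower with dim genes left out or with an intensity trend and robust prior (Ciita, adjusted p = 0.0287 and 0.0412). Leaving out single arrays gave 0 to 1 higher and 0 to 1 lower. For mixed against Py117 tumours, the count of lower members was 1 after median centring, 0 at adjusted p under 0.01, 0 with the adipocyte covariate, 0 without the 3 Py117 tumours of highest adipocyte mean, and 0 to 4 without single tumours. With the replicate number as a block, the counts were 7 and 6 higher in Py117 and Py8119 tumours than in culture, 0 between cultures, 6 lower in Py8119 than Py117 tumours, 3 lower and 4 higher for mixed tumours, and 4 interactions. H2-DMb1 in Py8119 tumours against culture was the member lost under the block (0.25, adjusted p = 0.15). That limma call was also lost with median centring (adjusted p = 0.313), array weights (0.113), an intensity trend and robust prior (0.063) and 1 fit over all 21 arrays (0.0748). At the threshold of 0.01 it was lost too. Of 618 member differences over other settings, 24 lost and 6 gained a call, and no called one reversed. Of 612 member differences without single arrays, 40 lost and 5 gained a call, and no called one reversed. Differences that were not called changed sign in 28 and 25 cases, at most 0.217 in size. The filter on dim genes left out H2-DMb1, H2-Oa and H2-Ob. Median centring shifted the median of all genes by -0.16 and -0.21 in tumours against culture and by 0.15 between cultures and 0.10 between unmixed tumours. It moved the share of higher genes among those called from 40.5% to 22.6% (Py117 tumours against culture), 43.8% to 20.7% (Py8119), 54% to 70.4% (cultures), 56% to 68% (unmixed tumours), 53.2% to 63.2% and 90.9% to 79.5% (mixed against Py117 and Py8119). The count of all genes for mixed against Py8119 tumours was 394, 907 with array weights and 224 at 0.01. At 0.01 it was 4495 (6811 at 0.05) for Py117 tumours against culture, 3653 (5942) between cultures and 1674 (2992) for the interaction. Positions of mixed tumours were 30.4% to 35.8% on the log2 scale in place of the linear scale, and 33.6% to 61.5% on the linear scale without single tumours. The background level limits differences of H2-DMb1, and those of H2-Aa and Ctss against or between cultures.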
